A study of Rattus norvegicus with 9 samples.

Results

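Among the 28343 genes counted in microglia sorted from rat retina, 10 genes were examined that encode receptors, ligands and an adaptor of the uptake of apoptotic cells and lipid. They were taken from the count table by symbol: the receptors Axl, Mertk and Tyro3, their ligands Gas6 and Pros1, the lipid receptor Trem2 and its adaptor Tyrobp, and the scavenger receptors Msr1, Cd36 and Scarb1. All 10 symbols were found, and 9 had enough counts to be among the 11748 genes tested. Tyro3 did not. The libraries came from Dark Agouti rats, an inbred strain, injected at 8 to 10 weeks of age after 12 hours without food. A dose of 55 mg/kg streptozotocin, which kills pancreatic beta cells, made the diabetic group (4 libraries, numbered 1, 2, 4 and 5, labelled hyperglycaemic), and citrate buffer made the control group (5 libraries, numbered 1, 3, 4, 5 and 6, labelled with normal blood glucose). Retinas were taken 4 weeks later. Diabetic rats received 2 units of insulin when a glucose reading passed 30 mmol/l. In both groups cells freed from the retina with papain were sorted on CD11b, which other myeloid cells carry as well as microglia. The labels do not say whether each library came from 1 rat, so p-values measure the spread between these libraries.

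An apoptotic cell exposes phosphatidylserine on its surface. The soluble proteins Gas6 and protein S bind that lipid and bridge it to Tyro3, Axl and Mertk, the TAM receptor tyrosine kinases, which start engulfment and dampen inflammatory signalling. TREM2 binds lipids and lipoproteins and signals through the adaptor DAP12, the product of Tyrobp, and the scavenger receptors take up modified lipoproteins, fatty acids and dying cells. In the retina Mertk is best known in the pigment epithelium, where its loss stops the clearing of shed photoreceptor tips, and in macrophages it is a receptor of steady-state clearance, while Axl is known for its induction during inflammation.

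Total counts ran from 9156591 to 11332823 in control and from 6228756 to 9629829 in diabetic libraries. The microglial genes Cx3cr1, P2ry12, Tmem119 and Csf1r were abundant in all 9 libraries, from 1366 CPM for P2ry12 in control 6 to 12099 CPM for Csf1r in control 5, while Siglech, listed as a further marker, and the monocyte marker Ccr2 had 0 counts throughout. Levels are given as CPM, the count scaled to a common library size after TMM factors, which are set so that most genes come out equal. In edgeR's quasi-likelihood test 8 of the 11748 genes (0.0681%) passed the adjusted threshold of 0.05: 5 were higher in diabetic libraries (0.0426%) and 3 lower (0.0255%). The split was 27 higher and 4 lower with upper-quartile factors, 28 and 1 without factors and 281 and 317 by the DESeq2 Wald test. Without factors the median over all genes, on the log2 scale, was 0.12 against 0.0018.

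Diabetic libraries had more Axl, Tyrobp and Msr1 RNA and less Mertk and Pros1 RNA on average, while Gas6, Trem2, Cd36 and Scarb1 had group means within 1 SD of each other. None of the 9 tested genes passed the adjusted threshold in edgeR's quasi-likelihood test, and at a looser adjusted threshold of 0.1, which 1.90% of all genes passed, only Axl did. Axl had the lowest p, followed by Mertk, Tyrobp and Pros1, and these 4 of 9 had an unadjusted p below 0.05, as did 18.9% of all genes tested (8.94% higher, 10.0% lower). The median log2 fold change of the 9 was 0.072 (0.0018 over all genes tested), with 5 of 9 higher in diabetic libraries. The 2 groups did not overlap for Axl and Mertk, that is for 2 of 9, against 8.44% of all genes tested (4.27% with diabetic libraries higher and 4.16% with them lower).

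**Figure D1:**
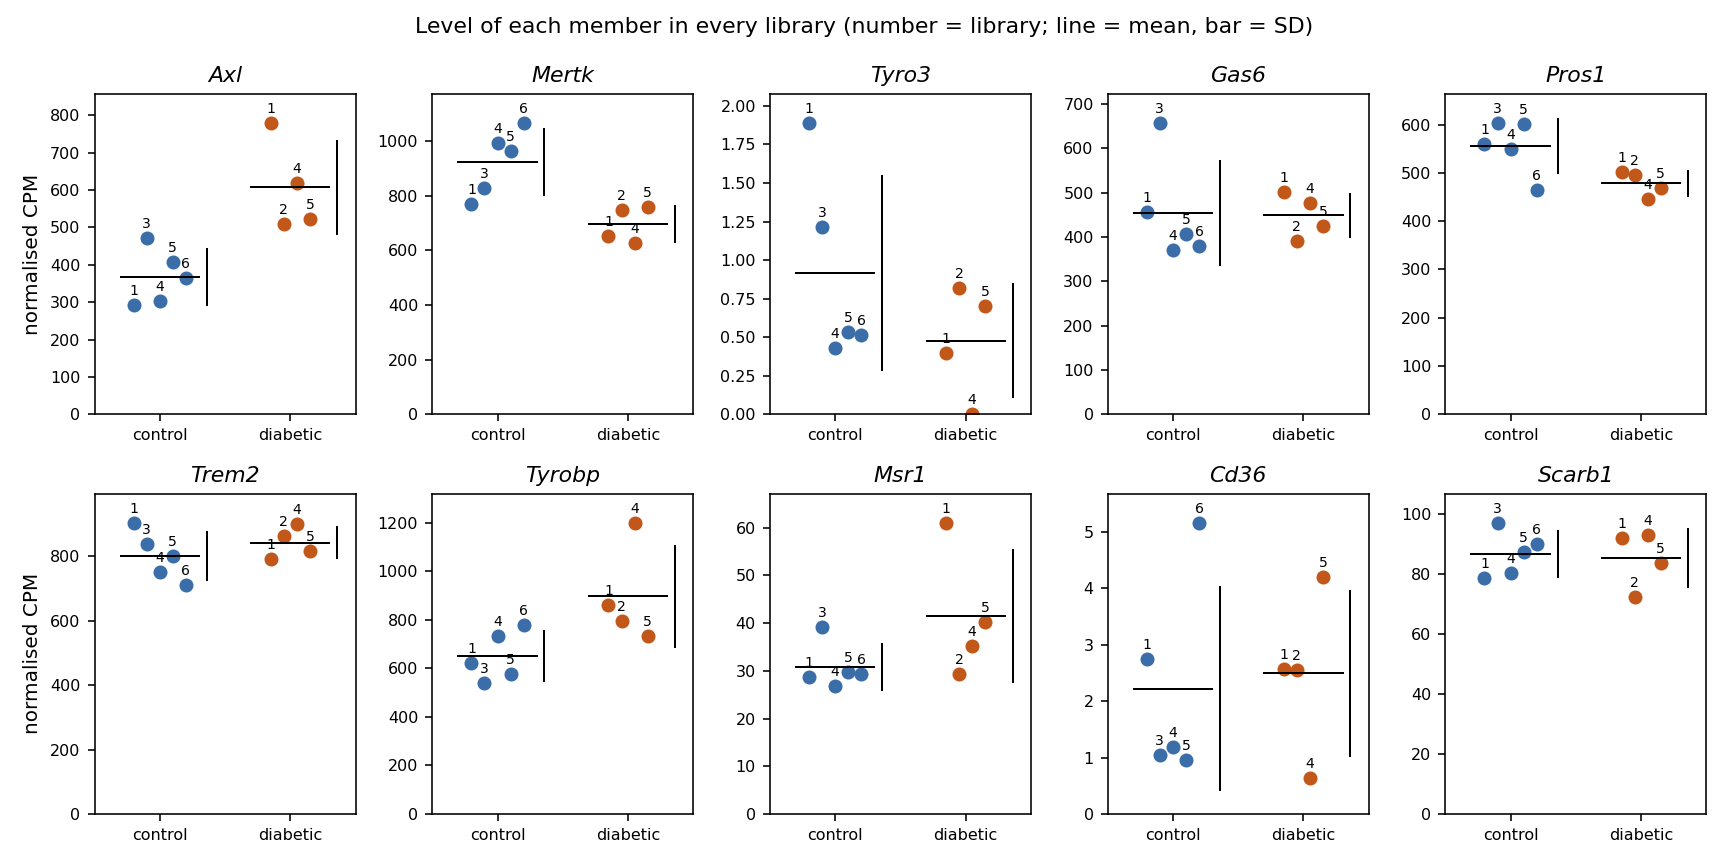
Normalised CPM (vertical axes, from 0, each with its own scale) of the 10 genes in the 5 control and 4 diabetic libraries. Points are libraries with their numbers, horizontal lines are group means and vertical bars are ± 1 SD. The groups are apart for Axl (diabetic higher) and Mertk (diabetic lower) and overlap in the other panels.

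Axl and Mertk, the main TAM receptors of these cells, lay in opposite directions. Axl (ENSRNOG00000020716, Rnor_6.0 chromosome 1, 82549420 to 82580761, minus strand, 19 exons in the longest reference transcript) was at 292 CPM (control 1), 473 (control 3), 302 (control 4), 406 (control 5) and 365 (control 6). In diabetic libraries it was at 778 CPM in number 1, 509 in number 2, 618 in number 4 and 522 in number 5. Every diabetic library lay above every control library, with control 3 the nearest from below and diabetic 1 far above the rest. The means were 368 ± 75.0 CPM (SD, n = 5) and 607 ± 124 CPM (SD, n = 4), and the log2 fold change was 0.72 (SE 0.22, 95% interval 0.30 to 1.15) with an adjusted p of 0.0895. Its rank by p was 119 of 11748. The adjusted p was past the threshold by the DESeq2 Wald test (0.00638, where 5.16% of all genes passed), by edgeR's likelihood-ratio test (0.0433, where 1.46% passed) and with the cell isolation list as a covariate (0.0119, where 10.9% passed), and it ranged up to 0.374 over all alternatives. The authors' deposited table puts Axl 0.83 higher on the log2 scale, adjusted p 0.0246, and has 2.10% of its genes below 0.05. The fit without normalization factors also gave 0.83 (adjusted p = 0.0663), with a median of 0.12 over all genes.

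Mertk (ENSRNOG00000017319, Rnor_6.0 chromosome 3, 121235119 to 121342444, plus strand, 19 exons) was at 771 CPM (control 1), 830 (control 3), 992 (control 4), 963 (control 5) and 1066 (control 6). The diabetic libraries had 654 CPM in number 1, 747 in number 2, 628 in number 4 and 759 in number 5. All of them lay below all controls, and the gap between control 1 and diabetic 5 was narrow. The means were 924 ± 121 CPM (SD, n = 5) and 697 ± 65.6 CPM (SD, n = 4), and the log2 fold change was -0.41 (SE 0.14, 95% interval -0.68 to -0.14) with an adjusted p of 0.110. It passed by the DESeq2 Wald test (adjusted p = 0.0300) and with the cell isolation covariate (adjusted p = 0.0119), with values up to 0.452 over the alternatives. Without normalization factors its log2 fold change was -0.28 against a median of 0.12 for all genes, and in the authors' deposited table it was -0.28 with an adjusted p of 0.579. A bulk sort cannot tell fewer cells that express a gene from less of its RNA per cell.

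By counts per kilobase of reference transcript, every diabetic library had more Axl for its Mertk than any control, but not by the authors' TPM (below). The ratio of Axl to Mertk per kilobase spanned 0.331 to 0.620 in controls and 0.741 to 1.30 in diabetic libraries. On the log2 scale the ratio was -1.28 (control 1), -0.69 (control 3), -1.59 (control 4), -1.12 (control 5) and -1.42 (control 6). It was 0.37 in diabetic 1, -0.43 in diabetic 2, 0.099 in diabetic 4 and -0.42 in diabetic 5. Axl exceeded Mertk per kilobase in diabetic 1 and diabetic 4 only, and no control ratio reached the lowest diabetic one. That separation was fixed by the values above, since Axl was higher and Mertk lower in every diabetic library than in any control. It is no further result. The group means of the log2 ratio differed by 1.13, a description without a test. The groups form separate clusters in both genes and hold under 6 libraries each, so no correlation of the pair is given.

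**Figure D2:**
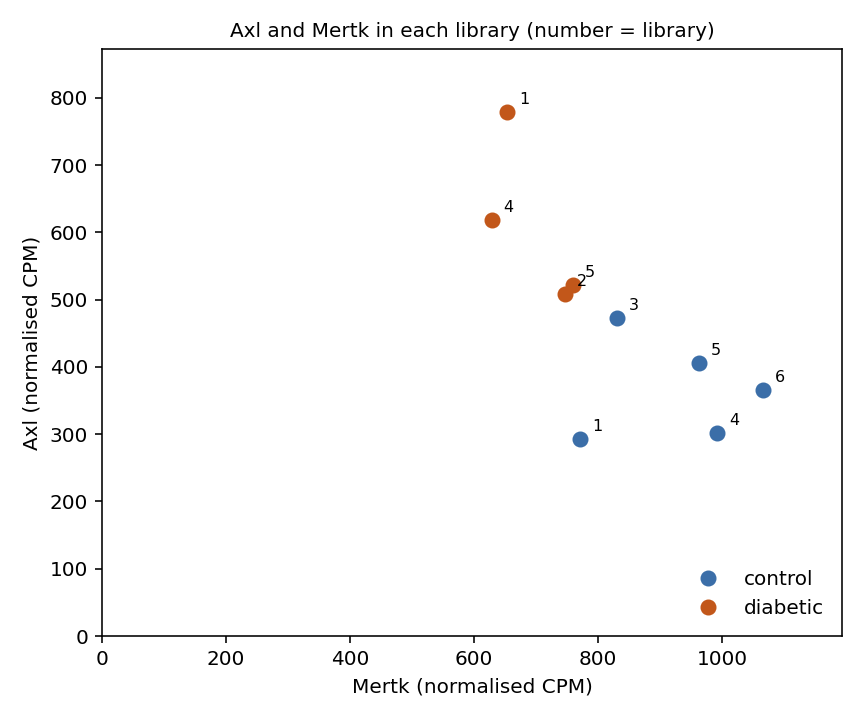
Axl (vertical axis) against Mertk (horizontal axis), both in normalised CPM from 0, with 1 numbered point per library. Diabetic libraries lie at the upper left (Axl 509 to 778, Mertk 628 to 759) and controls at the lower right (Axl 292 to 473, Mertk 771 to 1066).

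The sequences upstream of both receptor genes are shown because the pair lay apart in opposite directions. They are the 250 bases before the RefSeq transcript start on build GRCr8, Axl at chr1:90424010-90424259 on the minus strand and Mertk at chr3:136392324-136392573 on the plus strand. Of the 10 genes 7 had an entry in the RefSeq promoter table. Capitals mark matches, on either strand, to the Sp1 box GGGCGG, the AP-1 site TGANTCA, the core GAGGAA bound by the myeloid factor PU.1, and the TATA box TATAAA. None of the marked matches overlap.
Axl: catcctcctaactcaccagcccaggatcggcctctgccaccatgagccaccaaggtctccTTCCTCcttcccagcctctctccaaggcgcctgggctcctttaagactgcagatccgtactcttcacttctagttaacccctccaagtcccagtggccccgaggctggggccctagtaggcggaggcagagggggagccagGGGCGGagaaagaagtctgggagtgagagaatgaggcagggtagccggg
Mertk: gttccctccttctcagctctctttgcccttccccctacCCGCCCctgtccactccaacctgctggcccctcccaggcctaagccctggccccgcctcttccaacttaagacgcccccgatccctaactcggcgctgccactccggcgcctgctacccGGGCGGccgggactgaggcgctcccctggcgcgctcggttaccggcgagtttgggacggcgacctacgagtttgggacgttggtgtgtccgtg
The Axl window held 1 Sp1 box, starting 49 bases before the transcript start, and 1 PU.1 core at 190 bases on the opposite strand. The Mertk window held 2 Sp1 boxes, at 93 bases and, on the opposite strand, at 212 bases, and no PU.1 core. Neither held an AP-1 site or a TATA box in these letters. Of 33469 rat windows of the same length, 30.5% held an Sp1 box, 23.3% the PU.1 core, 6.34% the AP-1 site and 12.9% the TATA box. The windows differed in CG dinucleotides, with 7 in Axl and 22 in Mertk. These matches describe the sequence and are not measured binding.

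Tyro3, the TAM receptor best known from neurons, was close to undetected. It had 20 counts (control 1), 14 (control 3), 4 (control 4), 5 (control 5) and 4 (control 6), and 4, 8, 0 and 7 counts in diabetic 1, 2, 4 and 5. The highest level was 1.89 CPM in control 1. A count of 0 in diabetic 4 allows up to 0.478 CPM (3 counts, counting error only), and the groups overlapped. No fold change is given at this depth.

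RNA of both soluble TAM ligands was detected in all 9 libraries. Gas6, the ligand of all TAM receptors (ENSRNOG00000018233, Rnor_6.0 chromosome 16, 81213364 to 81243757, minus strand), was at 457 CPM (control 1), 657 (control 3), 371 (control 4), 408 (control 5) and 379 (control 6), and at 501, 392, 477 and 425 CPM in diabetic 1, 2, 4 and 5. The diabetic libraries all lay inside the control range, whose top was set by control 3. Its log2 fold change was -0.018 (95% interval -0.34 to 0.31, adjusted p = 0.963). The sign turned under 8 of 20 alternatives, and without control 3 the value was 0.15.

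Pros1, the gene of protein S, a ligand of Tyro3 and Mertk and an anticoagulant of plasma, was at 561 CPM (control 1), 603 (control 3), 550 (control 4), 601 (control 5) and 465 (control 6). It was at 503, 495, 447 and 468 CPM in diabetic 1, 2, 4 and 5. Control 6 lay among the diabetic libraries and the other controls above them. The means were 556 ± 55.9 CPM (SD, n = 5) and 478 ± 25.6 CPM (SD, n = 4), and the log2 fold change was -0.22 (SE 0.11, adjusted p = 0.241), which stayed below 0 under 20 of 20 alternatives and was -0.11 without factors. The assembly files place it on Rnor_6.0 chromosome 7, 1206648 to 1288134, while RefSeq's table for GRCr8 has it on another chromosome. Per kilobase, Gas6 to Pros1 was a ratio of 0.860 to 1.39 in control and 1.01 to 1.36 in diabetic libraries, and the ranges overlapped. By the authors' TPM the means in control libraries were 117 ± 56.2 (SD, n = 5) for Pros1 and 104 ± 36.7 for Gas6. In diabetic libraries they were 188 ± 89.8 (SD, n = 4) for Pros1 and 105 ± 10.1 for Gas6. There the order of the means differed from that per kilobase.

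Trem2 lay within the control range in all diabetic libraries, and its adaptor gene above it in 3 of 4. Trem2 was at 903 CPM (control 1), 839 (control 3), 750 (control 4), 799 (control 5) and 711 (control 6), and at 790, 864, 899 and 814 CPM in diabetic 1, 2, 4 and 5. The highest and the lowest value were both controls, number 1 and number 6. The log2 fold change was 0.072 (95% interval -0.11 to 0.25, adjusted p = 0.673). That interval holds for TMM factors only, and the value was 0.15 with upper-quartile factors and 0.18 without factors.

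Tyrobp (ENSRNOG00000020845, Rnor_6.0 chromosome 1, 88875375 to 88879303, plus strand, 5 exons), which also serves other activating receptors of myeloid cells, was at 621 CPM (control 1), 538 (control 3), 734 (control 4), 575 (control 5) and 780 (control 6). It was at 862 CPM in diabetic 1, 795 in diabetic 2, 1199 in diabetic 4 and 734 in diabetic 5. Diabetic 5 fell inside the control range and the other 3 lay above it, diabetic 4, the library with the lowest total count, by the most. The means were 650 ± 104 CPM (SD, n = 5) and 898 ± 208 CPM (SD, n = 4), and the log2 fold change was 0.47 (SE 0.18, adjusted p = 0.153), and 0.29 without diabetic 4, which moved it by over 1.5 times. The mean log2 ratio of Trem2 to Tyrobp was lower by 0.38 in diabetic libraries, with overlapping ranges. By the authors' TPM the log2 difference of Tyrobp was 0.12, with overlapping groups. Neutrophil markers without Csf3r, a list given with the marker lists, were also highest in diabetic 4 and diabetic 1, and their part in the level of Tyrobp was not tested.

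The scavenger receptors had the fewest counts of the tested members. Msr1, a class A receptor for modified lipoproteins (ENSRNOG00000012779, Rnor_6.0 chromosome 16, 56813791 to 56900052, minus strand), was at 28.8 CPM (control 1), 39.3 (control 3), 26.9 (control 4), 29.7 (control 5) and 29.4 (control 6). In diabetic libraries it was at 61.0 CPM in number 1, 29.3 in number 2, 35.2 in number 4 and 40.3 in number 5. Diabetic 1 and 5 lay above all controls and the rest overlapped. The log2 fold change of 0.43 (SE 0.22, adjusted p = 0.264) was 0.18 without diabetic 1.

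Scarb1, a class B receptor that exchanges cholesterol with high-density lipoprotein (Rnor_6.0 chromosome 12, 36694960 to 36761455, plus strand), spanned 78.5 to 97.0 CPM in control libraries, with a median of 87.4, and 72.4 to 93.0 CPM in the diabetic group. The log2 fold change was -0.022 (95% interval -0.23 to 0.19, adjusted p = 0.924), and the sign turned under 5 of 20 alternatives. Cd36, the class B receptor of long-chain fatty acids and oxidised lipoproteins, had only 29, 12, 11, 9 and 40 counts in controls 1, 3, 4, 5 and 6 and 26, 25, 4 and 42 counts in diabetic 1, 2, 4 and 5. Levels of 0.963 to 5.15 CPM in control and 0.637 to 4.20 CPM in diabetic libraries overlapped widely. The 95% interval of its log2 fold change of 0.22, from -0.95 to 1.39, includes 0 and differences of either sign.

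**Figure D3:**
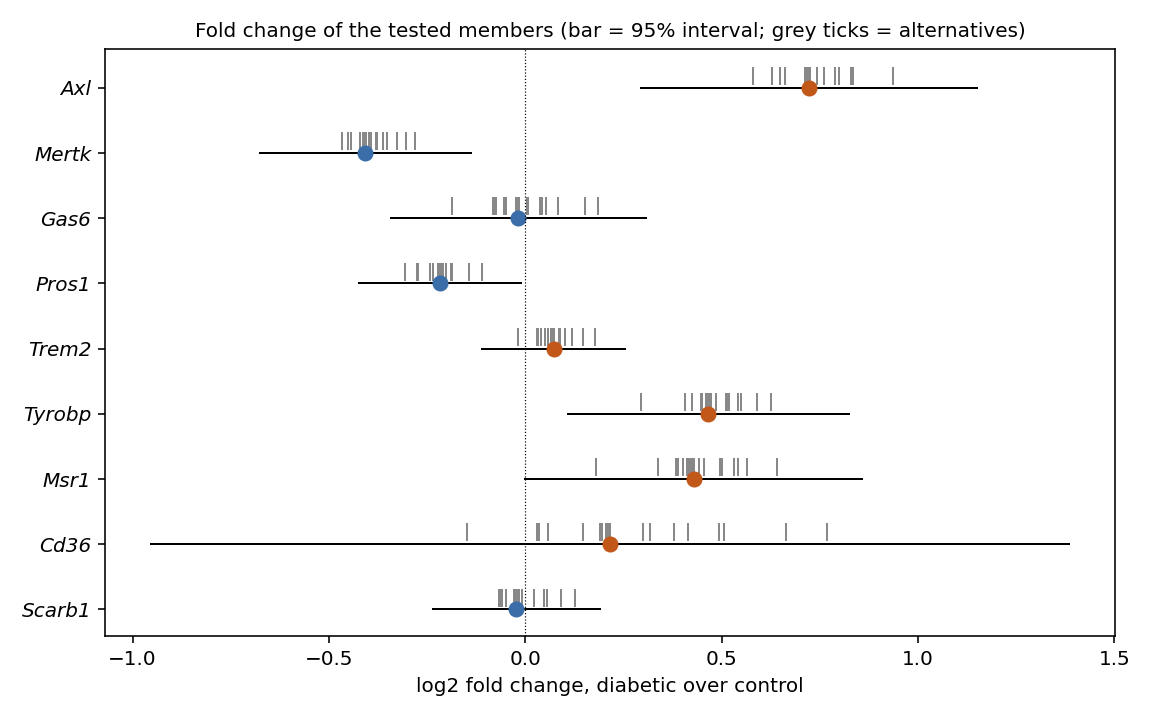
Log2 fold change of diabetic over control libraries (horizontal axis) for the 9 tested genes. Points are the estimates, bars their 95% intervals and grey ticks the values under the 20 alternatives. Ticks for Axl (0.58 to 0.94), Tyrobp (0.29 to 0.62) and Msr1 (0.18 to 0.64) stayed above 0, and those for Mertk (-0.47 to -0.28) and Pros1 (-0.31 to -0.11) below it.

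Per kilobase of the longest reference transcript, which 7 of the 10 genes have in the assembly files, Tyrobp stood highest in controls (1077 ± 172 CPM per kilobase, SD, n = 5). Mertk (199 ± 26.0), Gas6 (179 ± 46.6) and Pros1 (172 ± 17.3) came next, and their intervals of mean ± 1 SD overlapped. Axl (86.1 ± 17.6) lay below them, then Scarb1 (34.9 ± 3.04) and Msr1 (5.24 ± 0.828). In diabetic libraries Axl, at 142 ± 29.1 CPM per kilobase (SD, n = 4), was within the SD of Mertk (150.0 ± 14.1) and Pros1 (148 ± 7.88).

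The authors' TPM values, transcript levels scaled for length and depth within a library, were summed over the assembled transcripts of each locus as another summary of the same reads. Axl was at 36.9 to 61.7 TPM in control and 65.3 to 122 TPM in diabetic libraries, without overlap. Mertk was at 90.7 to 238 TPM in control and 80.0 to 149 TPM in diabetic libraries, with overlap. The ratio of Axl to Mertk overlapped too. Diabetic 2 (Axl 65.3, Mertk 149 TPM) had less Axl for its Mertk than control 3 (Axl 49.7, Mertk 95.7 TPM). In diabetic 5 Axl was at 85.7 and Mertk at 85.0 TPM. Pros1, lower by counts, had means of 117 ± 56.2 TPM (SD, n = 5) in control and 188 ± 89.8 TPM (SD, n = 4) in diabetic libraries, so its sign differed between the summaries. Tyrobp spread from 274 to 819 TPM in control libraries alone, and Msr1 was assembled in 3 of the 9 libraries and is listed at 0 in the others.

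Axl was high in the libraries that were high in markers of border macrophages, the macrophages of vessels and meninges. The list of 10 measured markers (among them Cd163, Mrc1, Lyve1 and F13a1) held 0.0510%, 0.0951%, 0.0405%, 0.0660% and 0.0438% of the counts in controls 1, 3, 4, 5 and 6, and 0.184%, 0.0848%, 0.123% and 0.0943% in diabetic 1, 2, 4 and 5. None of the 10 was at 0. The log2 share differed by 1.04 between the groups (exact permutation test, two-sided, p = 0.0317, adjusted p = 0.143 over 12 lists, where the smallest p this design allows is 0.00794). Control 3, highest of the controls on the list, was the control with the most Axl, and diabetic 1 was highest on both. The diabetic libraries had the same order on the list and for Axl. No correlation with the list is given for Axl and Mertk, whose groups do not overlap and hold under 6 libraries each. For Msr1 Pearson's r over the 9 libraries, which share a scaling, was 0.87. It was 0.71 without the libraries farthest on the list, diabetic 1 and control 4. The other tested members with overlapping groups ran from -0.27 (Pros1) to 0.57 (Gas6). By rank (Spearman's rho) Gas6 was at 0.83 and Msr1 at 0.85. In the control and the diabetic library nearest on the list, control 3 (0.0951%) and diabetic 5 (0.0943%), Axl was at 473 and 522 CPM and Mertk at 830 and 759 CPM. The part of these cells in the differences of Axl, Msr1 and Mertk was not tested.

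**Figure D4:**
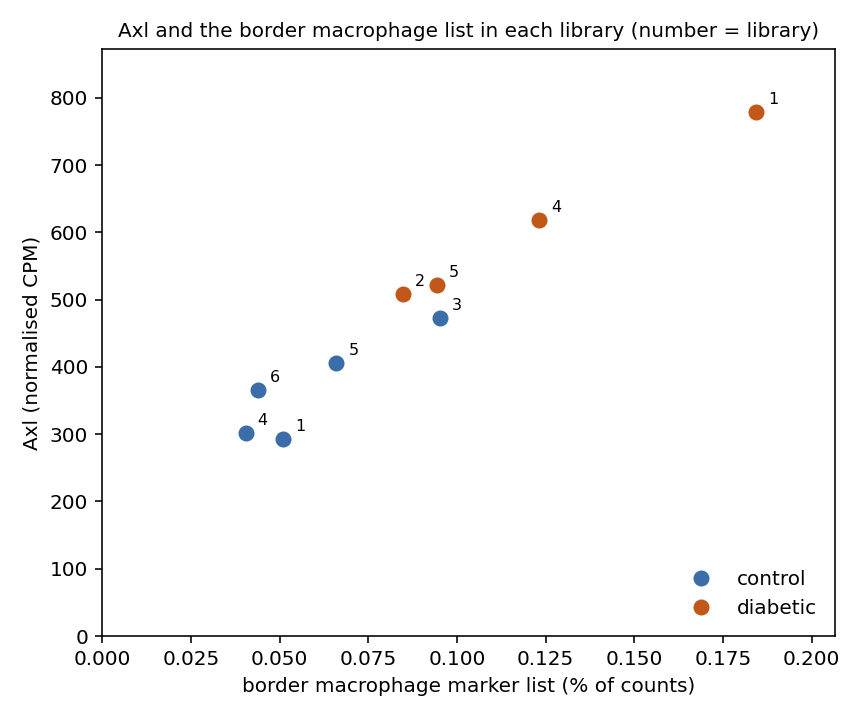
Axl (normalised CPM, vertical axis) against the share of counts on the border macrophage list (percent, horizontal axis), both from 0, with 1 numbered point per library. Libraries of both groups lie along a rising band from control 4 (0.0405%, 302 CPM) to diabetic 1 (0.184%, 778 CPM), and control 3 lies beside diabetic 2 and 5.

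The remaining marker lists were measured for the same purpose. By the exact permutation test 0 of 12 lists passed an adjusted p of 0.05, and 4 had an unadjusted p below it: border macrophage and platelet and erythrocyte (both exact p = 0.0317), retinal pigment epithelium and inner retinal neuron (both exact p = 0.0476). The cell isolation list of immediate-early and stress genes held 2.27% and 2.82% of the counts in controls 4 and 6, 0.415% to 0.954% in the other controls and 1.25% to 2.01% in diabetic libraries. Controls 4 and 6 also had the lowest Trem2 and the highest Mertk and Tyrobp of the controls. Over the 9 libraries Pearson's r with the mean log2 CPM of that list's tested genes was -0.83 for Gas6 and -0.71 for Trem2. The other tested members ran from -0.53 (Pros1) to 0.57 (Cd36). The part of the isolation genes in these levels was not tested. Without controls 4 and 6, a choice made after seeing the data, the log2 fold change of Axl was 0.63, of Mertk -0.30, of Tyrobp 0.62 and of Trem2 -0.019. The retinal pigment epithelium list held 0.136% to 0.175% in control and 0.172% to 0.186% in diabetic libraries, nearly all of it Best1, and without Best1 0.00578% to 0.00750% and 0.00459% to 0.00876%. Its defining gene Rpe65 had 0 to 7 counts and Lrat had 0. The microglia list held 2.03% to 2.88% and 2.44% to 2.61%, Muller glia and astrocyte 0.205% to 0.248% and 0.195% to 0.228%, and endothelium 0.0334% to 0.0602% and 0.0348% to 0.0514%. The photoreceptor list held 0.0252% to 0.136% and 0.0393% to 0.204%, and the inner retinal neuron list 0.00814% to 0.0182% and 0.0118% to 0.0368%. The monocyte list held 0.00374% to 0.00563% and 0.00429% to 0.00654%, pericyte and smooth muscle 0.00807% to 0.0188% and 0.00832% to 0.0122%, and platelet and erythrocyte 0.00134% to 0.00275% and 0.00236% to 0.00459%. Most of the platelet and erythrocyte list was Pf4, a gene that the border macrophage list also holds. Without Pf4 it held 0.000306% to 0.000584% and 0.000337% to 0.000459%.

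The neutrophil list held 0.0274% to 0.0394% of the counts in control and 0.0319% to 0.0376% in diabetic libraries, nearly all of it Csf3r, a receptor gene that was lower in all diabetic libraries (329 ± 26.1 and 288 ± 9.01 CPM, adjusted p = 0.246). Without Csf3r the other 10 genes held 0.00128%, 0.000856%, 0.000120%, 0.0000874% and 0.000173% in controls 1, 3, 4, 5 and 6 and 0.00618%, 0.00221%, 0.00822% and 0.00241% in diabetic 1, 2, 4 and 5. All diabetic libraries lay above all controls. S100a8 and S100a9, which encode the calprotectin subunits of neutrophils, were at 0.239 ± 0.373 and 5.11 ± 3.95 CPM (adjusted p = 0.0895) and at 2.32 ± 2.52 and 29.9 ± 18.5 CPM (adjusted p = 0.106), both without overlap. Cxcr2 (0.765 ± 0.935 and 2.93 ± 1.71 CPM, adjusted p = 0.221) and Mmp8 (0.932 ± 0.872 and 4.57 ± 3.40 CPM, adjusted p = 0.216) overlapped, and Np4 and Lcn2 had 0 counts. When each of the 12 lists was taken without its most abundant gene, the groups did not overlap for the border macrophage and neutrophil lists and overlapped for the other 10.

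Other genes of apoptotic cell and lipid uptake were read from the same fit. Of 132 listed genes 104 were tested, 45 higher and 59 lower, with a median log2 fold change of -0.063. None passed the adjusted threshold in edgeR's quasi-likelihood test, while 25 had an unadjusted p below 0.05 (11 higher, 14 lower). Of all genes tested 18.9% did (8.94% higher, 10.0% lower), and the counts of each list below stand beside these shares. The DESeq2 Wald test called 12, in a test that called 5.16% of all genes. The authors' deposited table lists 106 of these genes and has 7 at an adjusted p below 0.05, a threshold that 2.10% of its 12069 genes passed.

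The list of other scavenger receptors had the highest median, 0.28, with 10 of 18 tested genes higher. Of the 18, 5 higher and no lower genes had an unadjusted p below 0.05 (8.94% and 10.0% of all genes). Of its genes Cd163, Stab1 and Mrc1 are also on the border macrophage list, with log2 fold changes of 1.55, 0.97 and 0.73. Their part in the median was not tested. Colec12, a scavenger receptor with a collagen-like stalk and a lectin domain, was at 22.4 ± 3.51 CPM in controls (SD, n = 5) against 57.6 ± 20.3 CPM (SD, n = 4), without overlap. Its log2 fold change was 1.36 (adjusted p = 0.0607). Cd163, the receptor of haptoglobin-haemoglobin complexes and a border macrophage marker, was at 57.3 ± 22.1 and 168 ± 64.3 CPM (1.55 on the log2 scale, adjusted p = 0.0895), also without overlap. Scarf1, a receptor of apoptotic cells through C1q, was at 2.42 ± 0.908 and 5.33 ± 1.95 CPM, with overlap (adjusted p = 0.126). Olr1, the receptor of oxidised low-density lipoprotein, lies far to the left in the plot of the lists and was singled out after its values were seen. Its level was 2502 CPM (control 4) and 5468 CPM (control 6) in the libraries highest on the cell isolation list, at 103 to 218 CPM in the other controls and at 98.9 to 340.4 CPM in diabetic libraries (-3.10 on the log2 scale, adjusted p = 0.289).

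Among TREM family genes, partners and ligands 10 of 16 were higher, with a median of 0.050. An unadjusted p below 0.05 was found for 2 higher and 2 lower genes (18.9% of all genes). Hcst, which encodes DAP10, an adaptor that can pair with DAP12, was at 7.03 ± 1.37 CPM (SD, n = 5) and 16.2 ± 4.45 CPM (SD, n = 4) without overlap (1.2 on the log2 scale, adjusted p = 0.0607). Trem1, the DAP12-coupled amplifier of inflammatory signals in neutrophils and monocytes, was at 2.77 ± 1.74 and 7.11 ± 1.83 CPM (1.37 on the log2 scale, adjusted p = 0.114), and the groups overlapped. The part of neutrophil RNA in it was not tested. Ctnnb1, the gene of beta-catenin, which TREM2 signalling stabilises, was at 212 ± 19.99 and 160.4 ± 10.9 CPM, all diabetic libraries lower (-0.40 on the log2 scale, adjusted p = 0.0930).

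In the list of bridging molecules and other apoptotic-cell receptors 5 of 14 genes were higher, with a median of -0.078. Of the 14, 2 higher and 3 lower genes had an unadjusted p below 0.05 (18.9% of all genes). Anxa1, a phosphatidylserine-binding annexin that promotes clearance, was at 27.3 ± 5.62 CPM (SD, n = 5) and 47.2 ± 4.01 CPM (SD, n = 4), without overlap (0.79 on the log2 scale, adjusted p = 0.0620). Havcr2, the gene of the phosphatidylserine receptor TIM-3, was at 529 ± 242 and 277 ± 40.0 CPM, all diabetic libraries lower (-0.93 on the log2 scale, adjusted p = 0.163). Itgav, the alpha subunit of the integrins that bind Mfge8, was at 86.8 ± 21.6 and 61.2 ± 10.4 CPM with overlap (adjusted p = 0.189). Without controls 4 and 6 the log2 fold changes of Havcr2 and Itgav were -0.44 and -0.27.

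The list of TAM signalling, ligand carboxylation and shedding had the lowest median, -0.19, with 3 of 15 genes higher. Of the 15, 3 lower and no higher genes had an unadjusted p below 0.05 (10.0% and 8.94% of all genes). Adam10 and Adam17, proteases that shed receptor ectodomains from the cell surface, were at 352 ± 45.4 and 275 ± 29.4 CPM and at 249.5 ± 11.2 and 218 ± 8.59 CPM in control (n = 5) and diabetic (n = 4) libraries. For both, all diabetic libraries lay below all controls, with log2 fold changes of -0.35 and -0.19 (adjusted p = 0.142 and 0.215). Ranbp9, a scaffold protein, was at 133 ± 25.9 and 93.3 ± 8.35 CPM without overlap (-0.51 on the log2 scale, adjusted p = 0.102).

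In the engulfment machinery 5 of 16 genes were higher, with a median of -0.086. Of the 16, 2 higher and 2 lower genes had an unadjusted p below 0.05 (18.9% of all genes). Nckap1l, the blood-cell subunit of the WAVE complex that drives actin branching, was at 1109 ± 104 CPM (SD, n = 5) and 849 ± 55.7 CPM (SD, n = 4) without overlap (-0.39 on the log2 scale, adjusted p = 0.0927). Xkr8, a scramblase that exposes phosphatidylserine in dying cells, was at 9.81 ± 1.45 and 13.9 ± 1.84 CPM (adjusted p = 0.157), and Vav3, an exchange factor of small GTPases, at 6.79 ± 2.44 and 12.7 ± 8.61 CPM (adjusted p = 0.249). Both overlapped, and the log2 fold change of Vav3 was 0.90, or 0.31 without diabetic 1.

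Lipid sensing, storage and efflux genes had a median of -0.16, with 8 of 22 higher. Of the 22, 1 higher and 4 lower genes had an unadjusted p below 0.05 (18.9% of all genes). Lyn, a Src family kinase that couples CD36 and other receptors to the cell interior, was at 1147 ± 145 CPM (SD, n = 5) and 859 ± 49.5 CPM (SD, n = 4), all diabetic libraries lower (-0.42 on the log2 scale, adjusted p = 0.0930). Acsl1, which activates long-chain fatty acids, was at 65.6 ± 3.65 and 55.1 ± 2.21 CPM, also without overlap (-0.25 on the log2 scale, adjusted p = 0.171). Abca7, a lipid transporter that aids phagocytosis, was at 22.4 ± 3.57 and 31.8 ± 6.69 CPM with overlap (adjusted p = 0.151). Signals that restrain uptake had 6 of 7 genes higher, a median of 0.12 and no gene at an unadjusted p below 0.05. Lilrb4, an inhibitory receptor, was at 21.0 ± 6.53 and 28.7 ± 12.4 CPM. Cd47, the ligand of the inhibitory receptor of phagocytes, was at 470.1 ± 50.2 and 415 ± 31.7 CPM (adjusted p = 0.331).

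**Figure D5:**
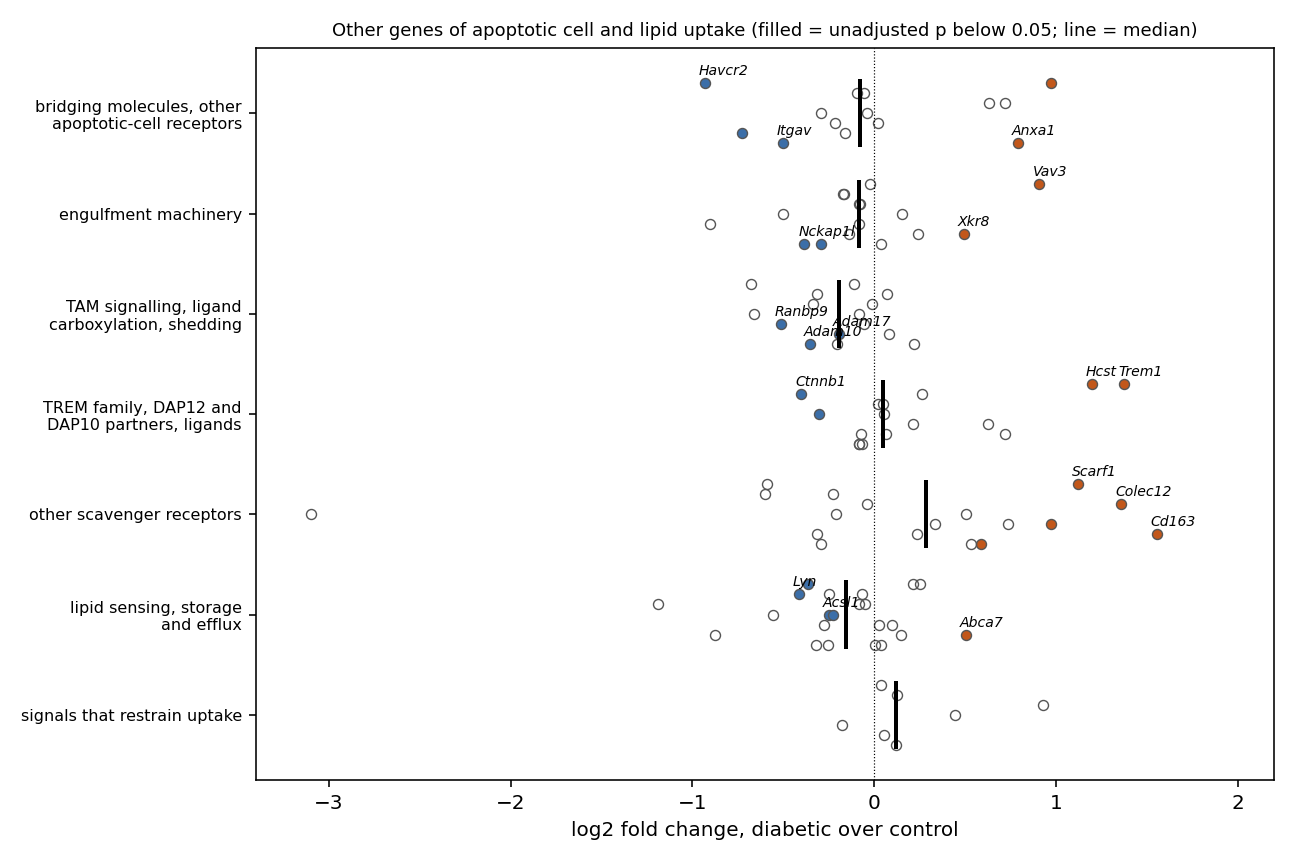
Log2 fold change of diabetic over control libraries (horizontal axis) for the tested genes of 7 lists (rows). Each point is a gene, filled where its unadjusted p is below 0.05 (orange higher, blue lower), and black lines are list medians, from -0.19 (TAM signalling, carboxylation and shedding) to 0.28 (other scavenger receptors). A gene held by 2 lists is drawn in both.

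The genes whose levels were most like each member over the 9 libraries were ranked by Pearson's r of log2 CPM, among 11748 genes that share scaling and depth, so high values are expected at the top of such a ranking, and for Axl and Mertk the difference between the groups enters them. For Axl they were Troap (r = 0.98), Cfd (0.96), the gene of complement factor D, and Stab1 (0.96), a scavenger receptor of border macrophages. Without diabetic 1 and control 1 the same values were 0.99, 0.93 and 0.95. For Mertk they were Eogt (0.99), Nktr (0.99) and Mfhas1 (0.98), and for Trem2 Tysnd1, Dph7 and RGD1565784 (0.97 each). Tyrobp was most like LOC501110, Cox8a and Rps29 (0.97 each), the latter pair encoding a respiratory chain subunit and a ribosomal protein. Pros1 was most like Fads1, App and Spata6 (0.94 to 0.97), Gas6 like Chmp7, AABR07018244.1 and Bop1 (0.91 to 0.92), and Scarb1 like Cenpf (0.95) and Aifm2 (0.89). Msr1 was most like Prr5, Vav3 and Clec7a (0.92 to 0.95), of which Prr5 was at 0.84 and Vav3 at 0.72 without diabetic 1 and 5. Cd36 was most like Slc1a4, Sec22c and AABR07043654.1 (0.93 to 0.94).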

How the data were processed

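The authors deposited raw gene counts for 9 libraries, keyed by symbol, a table of their own comparison (log2 fold change, p-value and adjusted p-value) and 9 transcript assemblies with TPM. Per the submitters' processing notes reads were aligned with TopHat2 2.0.14 to Rnor_6.0 and assembled with StringTie 1.2.4. How reads were counted, and with which strand setting, is not given in the sources used here, so overlapping genes cannot be told apart. RNA was preamplified (SmartSeq v4, per the labels), and counts are reads and not molecules. The deposited log2 fold changes and p-values are quoted only as the authors' table. 0 rows lacked a gene name.

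The low-count filter was filterByExpr at its defaults (10 per library, 15 in total). The remaining 11748 genes were scaled by TMM and tested with the quasi-likelihood F test of edgeR 4.0.16 in R 4.3.3, with Benjamini-Hochberg adjustment over all of them at 0.05. The SE was derived from the log2 fold change and the normal quantile of its p, and 95% intervals are 1.96 SE to each side. On simulated counts for 11748 genes the fit recovered 62.5% of 200 genes changed by a log2 fold change of 1, with 5.30% false calls. No 2 libraries agreed within sampling noise (chi-square per degree of freedom at least 11.7). TPM was summed over assembled transcripts with at least 0.5 of their exon bases on the reference exons, with a pseudocount of 0.5 for log2. Likeness used log2(CPM + 0.5). DESeq2 1.42.0, limma 3.58.1 and other factors, filters, covariates and library sets were the alternatives. A Trem2 to Tyrobp ratio per kilobase was not computed, since no reference length of Trem2 was used here.

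The genes named are the 10 members, the 3 of each list with the smallest p, and the 3 most like each tested member, of which a few are not reported here. The members, lists and tests were chosen with earlier results of these data known.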

Additional observations from a re-analysis of the deposited data

Results flagged for a closer look

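In 62 groups of values (control or diabetic libraries of a named gene), 6 had 1 library far from the others by Dixon's criterion, where chance gives about 1 in 20, or 3.10. Msr1 was at 39.3 CPM in control 3 against 26.9 to 29.7 CPM in the other controls. Control 3 was also the control with the highest share of border macrophage markers. Vav3 was at 25.6 CPM in diabetic 1 against 7.80 to 9.60 CPM in diabetic 2, 4 and 5, and Lilrb4 at 47.2 CPM there against 21.3 to 23.4 CPM. Trem1 was at 5.80 CPM in control 6 against at most 2.64 CPM in the other controls, and Lyn at 1397 CPM in control 6 against 1018 to 1120 CPM. Abca7 was at 28.6 CPM in control 5 against 19.9 to 21.9 CPM. Axl and Mertk had no such library in either group.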

How the results depend on the processing

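Of 600 results of the 30 named genes under 20 alternatives, 541 kept their direction and side of the adjusted threshold, 44 passed it in addition and 15 changed sign. The number of the 9 tested genes past an adjusted p of 0.05 was 0, and it was 2 by the DESeq2 Wald test and with the cell isolation covariate (Axl and Mertk in both) and 1 by the likelihood-ratio test (Axl). It was 0 whichever library was left out (0 to 0), and the number at an unadjusted p below 0.05 was then 3 to 5 of 9. Over all genes the share at that p was then 12.8% (without diabetic 4) to 23.5% (without control 1). The pathway genes past the adjusted threshold numbered 3 with upper-quartile factors, 3 without factors, 3 without a filter, 12 by DESeq2, 5 by the likelihood-ratio test and 17 with the covariate, and 0 to 1 when 1 library was left out (Hcst without control 1, Colec12 without diabetic 2). Over all genes there were 31 calls with upper-quartile factors, 29 without factors, 42 without a filter, 5 with a filter at 1 CPM in 3 libraries, 598 by DESeq2, 172 by the likelihood-ratio test, 4 by limma-voom, 1281 with the covariate, and 0 to 75 when 1 library was left out (75 without control 1, 2 without diabetic 2, 1 without control 3 or 5, 0 without control 4, diabetic 1 or diabetic 4). Without controls 4 and 6, a choice added after seeing the data, there were 0 in the quasi-likelihood test, with 1776 genes at an unadjusted p below 0.05. The causes of these shifts were not tested.

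Gas6 had a log2 fold change of 0.054 with upper-quartile factors, 0.083 without factors, 0.0044 by limma-voom, 0.19 with the replicate block, 0.037 with the covariate, 0.15 without control 3, 0.042 without diabetic 2 and 0.0062 without diabetic 5 (-0.083 to 0.15 when 1 library was left out). Scarb1 turned to 0.054 with upper-quartile factors, 0.091 without factors, 0.13 with the replicate block, 0.022 without control 3 and 0.048 without diabetic 2 (-0.067 to 0.048 when 1 was left out). Trem2 turned to -0.019 without controls 4 and 6, and Cd36 to -0.15 without diabetic 5 (-0.15 to 0.77 when 1 was left out). With the replicate block (numbers 1, 4 and 5 occur in both groups) edgeR called 0 genes, with 1129 at an unadjusted p below 0.05. No label ties same-numbered libraries together beyond the number. The correlations of their deviations were 0.20, -0.11 and 0.016 for numbers 1, 4 and 5. The control most like diabetic 1 was control 1, that most like diabetic 4 was control 3, and that most like diabetic 5 was control 4. These values cannot tell whether same-numbered libraries were handled together. Tyrobp by TPM differed by 0.12 on the log2 scale and by 0.15 over transcripts with a reference identifier, which no other gene had in all libraries. Tyro3, with 66 counts in all libraries together, was too shallow to test.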
